A study of Homo sapiens with 6 samples.

Results

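Of the genes used to mark tumour-initiating cells of the pancreas, 9 were followed here: CD44, CD24, PROM1, EPCAM, LGR4, LGR5, MET, MST1R and BMI1. The set was given by gene symbol and each symbol was matched to its numeric gene ID, and all 9 were found among the 30727 genes listed for every library. Polyadenylated RNA was sequenced from PANC-1, an established line grown from a carcinoma of the human pancreatic duct. There were 3 libraries labelled SUV420H2 knockdown by siRNA and 3 labelled control. SUV420H2, now named KMT5C, adds methyl groups to lysine 20 of histone H4. Both groups are cultures of 1 line with no sorting stated. The sources used here do not give which siRNA sequences or control were used, or when cells were collected. Whether the libraries came from separate cultures is not stated either, so the p-values measure the spread between these libraries, which may be technical.

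CD44 is a receptor for hyaluronan, CD24 a small glycoprotein held in the membrane by a lipid anchor, and EPCAM an adhesion molecule of epithelia. PROM1, also called CD133, is a membrane glycoprotein of cell protrusions. Cells sorted for CD44, CD24 and EPCAM, or for PROM1, have been used as tumour-initiating fractions of pancreatic carcinoma. LGR4 and LGR5 bind R-spondins and so protect Wnt receptors from the ligases RNF43 and ZNRF3. MET and MST1R (RON) are the receptor tyrosine kinases for HGF and for the related ligand MST1. BMI1 is not a surface protein: it is a nuclear subunit of Polycomb repressive complex 1, which ubiquitinates histone H2A and represses genes.

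The knockdown libraries held 38022772, 27007534 and 29758241 counted reads, and the controls held 25153340, 20863594 and 25931995. KMT5C itself had 6.03, 6.11 and 5.86 CPM (reads per 1000000, after TMM scaling of library size) in the knockdown libraries, against 9.55, 7.23 and 12.7 CPM in the controls. All 3 knockdown values lay below all 3 control values, and the fitted level was 60.6% of the control (log2 fold change −0.72, SE 0.163, edgeR adjusted p = 0.00227). Without control replicate 3 the log2 fold change of KMT5C was −0.50, and KMT5C was not called where more than a 1.5-fold change was required (edgeR glmTreat, adjusted p of 0.305, with 4.59e-10 to 0.305 over the alternatives). Control replicate 3 differed from the other controls by a chi-square per degree of freedom of 11.3 and 13.6, while the other pairs within a group lay between 1.55 and 2.26. Of 8 ductal and epithelial markers, KRT8, KRT18 and KRT7 rose, KRT19 and MUC1 fell, and CFTR and SLC4A4 stayed under 1 CPM in every library. Their summed level was 5596 to 5834 CPM in the knockdown libraries and 2435 to 2975 CPM in the controls. Markers of acinar, endocrine and endothelial cells were all under 1 CPM in every library, with the acinar AMY2A and the endocrine GCG at 0 reads throughout. Of 12 leukocyte and microglia markers, 10 stayed under 1 CPM in every library, and PTPRC, the pan-leukocyte marker, had 2 reads in the knockdown libraries together and 1 in the controls. Their summed level ran from 4.13 to 5.12 CPM in the knockdown libraries and from 2.36 to 3.1 CPM in the controls. The 7 fibroblast and stellate cell markers summed to 11.1 to 11.9 CPM in the knockdown libraries and 4.51 to 5.37 CPM in the controls, with 4 of 7 under 1 CPM in every library. The 11 neuron and astrocyte markers summed to 40.0 to 44.7 CPM in the knockdown libraries and 60.5 to 63.4 CPM in the controls, with AQP4 at 0 reads and 7 under 1 CPM in every library. What these lists contribute to the marker values was not tested.

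The markers split by direction. EPCAM, LGR4, BMI1 and MET were higher in the knockdown libraries, while CD44, CD24 and MST1R were lower, and PROM1 was almost undetected in either group. LGR5 was close to the detection limit in both groups and had more reads in the knockdown. Of the 9 genes, 7 passed the filter on low counts and were tested, and all 7 passed the threshold (4 higher, 3 lower; edgeR quasi-likelihood test, adjusted p under 0.05). Over all 15190 genes tested, 67.3% passed, 33.1% higher and 34.2% lower, so 7 of 7 is to be read against a background in which most genes passed. The groups did not overlap for any of the 7 genes, nor for 71.3% of all genes tested. The median log2 fold change of the 7 was 0.22, against −0.01 over all genes tested. In bulk RNA, a lower share of cells with a transcript and a lower amount per cell cannot be told apart. An exact permutation test of each gene's 6 values gave p = 0.1 for each of the 7, the smallest that 3 against 3 allows.

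**Figure D1:**
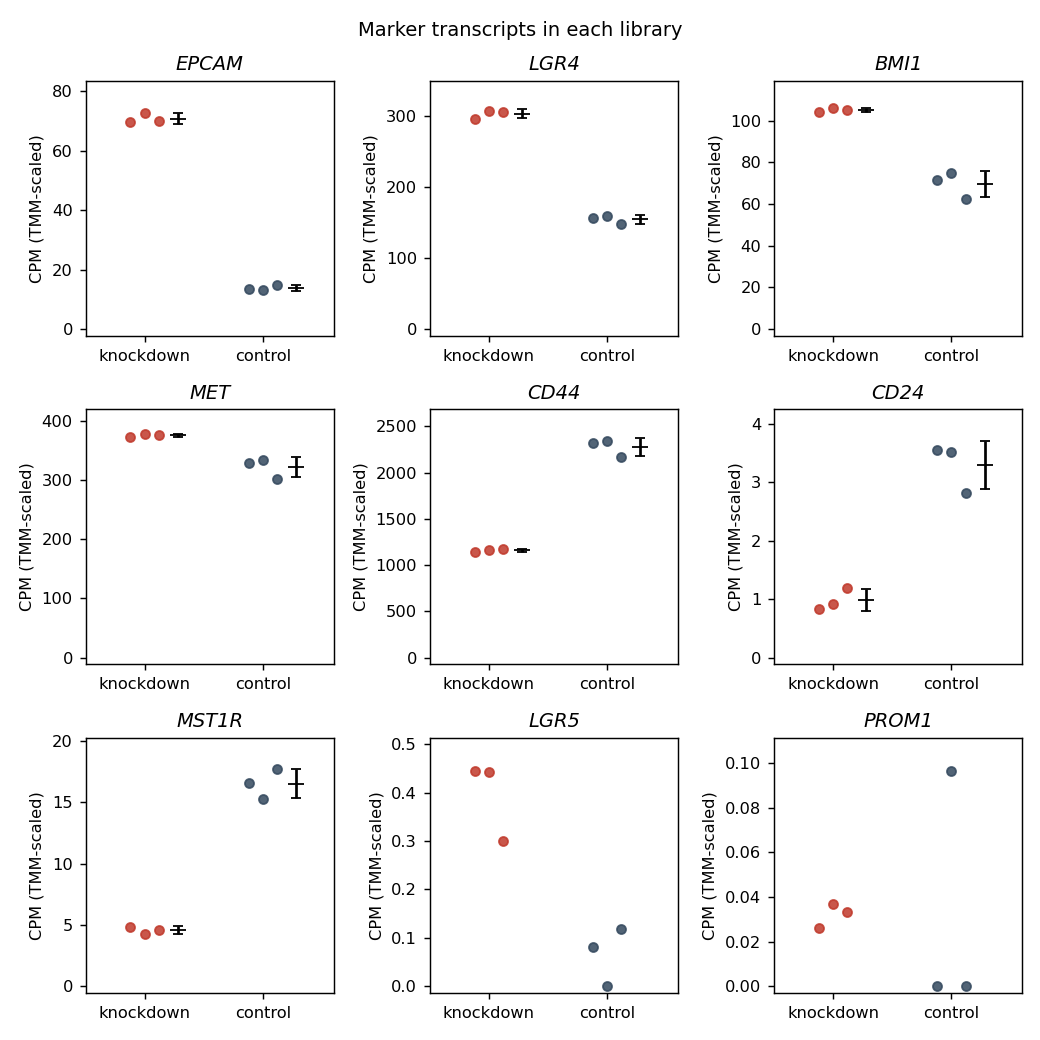
Levels of the 9 marker genes in each library, in CPM after TMM scaling, each panel on its own axis from 0, with knockdown libraries in red and controls in dark blue. Black bars give the mean and SD of 3 libraries and are left out for LGR5 and PROM1, which had 0 to 17 and 0 to 2 reads per library. EPCAM, at 69.5 to 72.8 CPM in knockdown and 13.2 to 14.9 CPM in control libraries, and CD44, at 1143 to 1176 CPM in knockdown and 2165 to 2346 CPM in control libraries, part the groups in opposite directions.

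**Figure D2:**
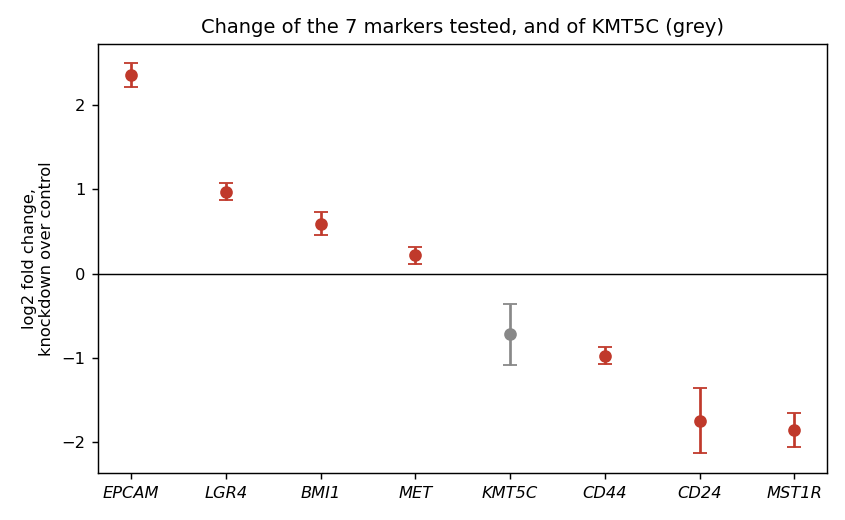
Log2 fold change, knockdown over control, of the 7 marker genes tested (red) and of the targeted gene KMT5C (grey), with 95% confidence intervals from the edgeR fit of 3 against 3 libraries. EPCAM (2.35) and LGR4 (0.97) lie highest, and CD24 (−1.75) and MST1R (−1.85) lie lowest.

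The relative abundance of the markers is read per length, as the RPKM that the authors deposited. CD44 was the most abundant in both groups, with 162 ± 2.46 RPKM in the knockdown and 313 ± 16.0 RPKM in the controls (SD, n = 3 each). By RPKM it ranked 289 to 299 of 30727 genes in the knockdown libraries and 112 to 135 in the controls. In the knockdown libraries LGR4 came next with 56.7 ± 1.21 RPKM, then MET with 53.7 ± 0.288, EPCAM with 40.3 ± 1.02, BMI1 with 30.0 ± 0.338, MST1R with 0.939 ± 0.0601 and CD24 with 0.305 ± 0.0591. In the controls the order was MET with 45.5 ± 2.77 RPKM, LGR4 with 28.6 ± 1.36, BMI1 with 19.7 ± 1.97, EPCAM with 7.79 ± 0.457, MST1R with 3.35 ± 0.224 and CD24 with 1.01 ± 0.134. LGR4 thus stood above MET in every knockdown library and below it in every control, and EPCAM likewise changed places with BMI1. The lowest places went to LGR5, at 0.058 to 0.0859 RPKM in the knockdown and 0 to 0.0223 in the controls, and to PROM1, at 0.00522 to 0.00737 in the knockdown and 0 to 0.0192 in the controls. LGR5 and PROM1 overlapped in the controls and did not overlap in the knockdown libraries.

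Among the adhesion and surface glycoproteins used for sorting, EPCAM went up and CD44 and CD24 went down. EPCAM (gene ID 4072; GRCh38 chromosome 2, 47369311 to 47387020, plus strand) had 69.5, 72.8 and 69.8 CPM in the knockdown libraries, against 13.5, 13.2 and 14.9 CPM in the controls. Every knockdown library was far above every control. The mean was 70.7 ± 1.79 CPM in the knockdown and 13.8 ± 0.926 CPM in the controls (SD, n = 3 each), a 5.1-fold rise (log2 fold change 2.35, SE 0.0627, edgeR adjusted p = 3.04e-10). Only 2.19% of the genes tested changed by more, in either direction. By RPKM, EPCAM ranked 1830 to 1911 in the knockdown libraries and 6893 to 7261 in the controls.

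CD44 (gene ID 960; GRCh38 chromosome 11, 35139171 to 35232402, plus strand) had 1143, 1168 and 1176 CPM in the knockdown libraries, against 2324, 2346 and 2165 CPM in the controls. These values rest on 31736 to 43788 reads per knockdown library and 48672 to 58174 per control. The knockdown mean of 1162 ± 16.8 CPM was 51.0% of the control level by the fit, against 2278 ± 98.6 CPM in the controls (SD, n = 3 each; log2 fold change −0.97, SE 0.0437, edgeR adjusted p = 1.06e-08). The counts are per gene, so the standard and variant splice forms of CD44 are not told apart. CD44-AS1 lies antisense within CD44, and counting is not stated to use strand.

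CD24 (gene ID 100133941; GRCh38 chromosome 6, 106969831 to 106976855, minus strand) was far less abundant, with 32, 25 and 36 reads in the knockdown libraries and 89, 73 and 72 in the controls. Scaled, these were 0.836, 0.92 and 1.2 CPM in the knockdown libraries, against 3.56, 3.52 and 2.82 CPM in the controls. The groups did not overlap, although each knockdown library was deeper than each control. The fitted level was 29.8% of the control (log2 fold change −1.75, SE 0.175, 95% interval −2.13 to −1.36, edgeR adjusted p = 5.29e-06). CD24 has pseudogene copies, and only uniquely aligned reads were counted. In its longest GENCODE 29 coding transcript, 6.9% of 50-base stretches recur in transcripts of other genes, so its level is uncertain and may be too low.

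PROM1 (gene ID 8842; GRCh38 chromosome 4, 15968228 to 16084023, minus strand) had 1, 1 and 1 read in the knockdown libraries and 0, 2 and 0 in the controls. With 3 reads against 2, the depth-corrected ratio was 1.14 with an exact 95% counting interval of 0.13 to 13.6, so a difference was not detectable at this depth. The relative PROM2 had 1.96 CPM in the knockdown and 1.05 CPM in the controls (log2 fold change 0.90, SE 0.203, edgeR adjusted p = 0.00225).

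The sequences upstream of the start site are shown for the tested markers with an entry, CD44, CD24 and MST1R, which fell, and LGR4, MET and BMI1, which rose. RefSeq promoter entries (build GRCh38.p14) matched 7 of the 9 genes, all but EPCAM and LGR5, and the first entry of each gene was taken. The windows are the 250 bases before the start site of the entry, on the strand of the gene: chr11:35138921-35139170 (plus) for CD44, chr6:106975628-106975877 (minus) for CD24, chr3:49903874-49904123 (minus) for MST1R, chr11:27472791-27473040 (minus) for LGR4, chr7:116671946-116672195 (plus) for MET and chr10:22320849-22321098 (plus) for BMI1. The CD24 window lies inside the gene as annotated, before an internal start site, while the other windows abut the start of the gene. Capitals mark the E-box CAGGTG, the CCAAT box (CCAAT) and the GC box (GGGCGG), on either strand.
CD44: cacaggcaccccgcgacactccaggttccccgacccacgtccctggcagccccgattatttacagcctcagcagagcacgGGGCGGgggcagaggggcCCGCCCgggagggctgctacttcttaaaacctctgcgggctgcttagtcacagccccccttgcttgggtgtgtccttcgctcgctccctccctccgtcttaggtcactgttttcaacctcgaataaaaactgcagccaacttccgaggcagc
CD24: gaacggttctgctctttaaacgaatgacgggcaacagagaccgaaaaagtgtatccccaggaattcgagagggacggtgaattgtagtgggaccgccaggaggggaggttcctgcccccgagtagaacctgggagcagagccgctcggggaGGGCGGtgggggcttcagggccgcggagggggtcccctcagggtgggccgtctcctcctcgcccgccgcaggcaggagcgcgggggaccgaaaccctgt
MST1R: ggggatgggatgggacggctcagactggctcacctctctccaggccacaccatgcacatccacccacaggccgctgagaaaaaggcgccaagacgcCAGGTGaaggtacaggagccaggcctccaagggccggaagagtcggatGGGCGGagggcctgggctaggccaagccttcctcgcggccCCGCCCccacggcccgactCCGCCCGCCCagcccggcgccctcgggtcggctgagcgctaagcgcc
LGR4: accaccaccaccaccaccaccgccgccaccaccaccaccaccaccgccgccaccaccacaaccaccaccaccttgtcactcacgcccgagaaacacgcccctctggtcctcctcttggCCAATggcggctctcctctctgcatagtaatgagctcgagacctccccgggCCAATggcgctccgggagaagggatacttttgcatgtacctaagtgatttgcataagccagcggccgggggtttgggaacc
MET: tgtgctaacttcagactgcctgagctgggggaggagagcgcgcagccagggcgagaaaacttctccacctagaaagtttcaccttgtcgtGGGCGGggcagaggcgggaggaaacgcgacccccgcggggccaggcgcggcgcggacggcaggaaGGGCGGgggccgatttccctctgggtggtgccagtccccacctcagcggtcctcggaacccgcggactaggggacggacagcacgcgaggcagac
BMI1: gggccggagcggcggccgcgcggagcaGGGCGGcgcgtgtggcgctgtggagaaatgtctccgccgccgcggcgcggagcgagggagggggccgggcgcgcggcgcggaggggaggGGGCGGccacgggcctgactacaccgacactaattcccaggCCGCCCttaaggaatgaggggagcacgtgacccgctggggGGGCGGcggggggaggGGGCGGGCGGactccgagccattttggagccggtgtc
CD44 held 2 GC boxes, starting at −170 and −152 from the start site, and neither of the other motifs. CD24 held 1 GC box at −99. MST1R held 1 E-box at −154 and 4 GC boxes, of which those at −47 and −43 overlap each other. LGR4 held 2 CCAAT boxes, at −132 and −81, and neither of the other motifs. MET held 2 GC boxes, at −160 and −95, and BMI1 held 6, and neither gene held the other motifs. The third entry of CD24 held 1 match of each motif. GC boxes thus occurred among both the genes that fell and the genes that rose. Of the 250 bases upstream of 27305 genes, 17.5% held the E-box letters, 33.0% the CCAAT letters and 42.3% the GC box letters, so such matches are common and are descriptions only.

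Of the R-spondin receptors, LGR4 was abundant and went up, whereas LGR5 was barely present. LGR4 (gene ID 55366; GRCh38 chromosome 11, 27365961 to 27472790, minus strand) had 296, 308 and 306 CPM in the knockdown libraries, against 157, 159.5 and 148 CPM in the controls. The knockdown mean was 303 ± 6.29 CPM and the control mean 155 ± 6.16 CPM (SD, n = 3 each), a 1.96-fold rise (log2 fold change 0.97, SE 0.0439, edgeR adjusted p = 1.08e-08). CD44 changed by as much in the opposite direction, and 14.8% of the genes tested changed by more. LGR4-AS1 lies within LGR4, so reads of the pair cannot be told apart without strand.

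LGR5 (gene ID 8549; GRCh38 chromosome 12, 71439129 to 71586310, plus strand), a marker of intestinal stem cells, had 17, 12 and 9 reads in the knockdown libraries and 2, 0 and 3 in the controls. All knockdown libraries were above all controls, also per read sequenced (0.30 to 0.444 CPM in the knockdown against 0 to 0.118 CPM in the controls). The depth-corrected ratio of 38 reads to 5 was 5.77, with an exact 95% interval of 2.27 to 18.8 that covers counting error only. LGR5 did not pass the filter on low counts. With no filter it had a log2 fold change of 2.42 (SE 0.59, edgeR adjusted p = 0.000177). That fit gave smaller edgeR adjusted p for every tested marker too, such as 1.18e-90 for EPCAM against 3.04e-10 with the filter. In the 4 fits without 1 library in which LGR5 was kept, the edgeR adjusted p ran from 0.000452 to 0.00915. There LGR5 was kept only through its knockdown counts, so these p-values add no support for a rise. LGR6, the third receptor of the family, had 39, 37 and 41 reads in the knockdown libraries, against 2, 1 and 6 in the controls (log2 fold change 3.24, SE 0.384, edgeR adjusted p = 2.04e-05). LGR6 thus had more reads than LGR5 in every knockdown library. With these control counts LGR6 passed the filter on low counts only through its knockdown libraries. Only a rise could therefore be seen for LGR6, and its adjusted p is a description only.

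Around these receptors, 18 of 29 R-spondin and Wnt receptor pathway genes were tested, of which 6 rose, 5 fell and 7 did not pass, with a median log2 fold change of 0.10 against −0.01 over all genes. The ligands themselves were close to absent: RSPO1 had 6 reads in the knockdown libraries together and 2 in the controls, RSPO2 had 2 in the knockdown and 3 in the controls, RSPO3 had 1 in the knockdown and 0 in the controls, and RSPO4 had 8 in the knockdown and 5 in the controls. FZD5, a Wnt receptor, rose to 77.2 ± 1.86 CPM in the knockdown, against 13.1 ± 0.931 CPM in the controls (log2 fold change 2.56, SE 0.063, edgeR adjusted p = 1.82e-10). FZD1, another Wnt receptor, fell (log2 fold change −1.34, SE 0.112, edgeR adjusted p = 1.26e-06). NOTUM, a secreted enzyme that inactivates Wnt ligands, rose by 2.29 on the log2 scale (SE 0.169, edgeR adjusted p = 4.58e-07). The ligases that LGR proteins restrain differed in sign, with RNF43 at 0.68 (SE 0.0894) and ZNRF3 at −0.38 (SE 0.0929), both past the threshold. AXIN2, a transcript commonly used as a readout of Wnt signalling, stood at −0.04 (SE 0.243, edgeR adjusted p = 0.892), from 87 reads in the knockdown and 67 in the control libraries.

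The pair of related receptor kinases behaved differently from each other. MET (gene ID 4233; GRCh38 chromosome 7, 116672196 to 116798377, plus strand) had 373, 377 and 375 CPM in the knockdown libraries, against 328, 334 and 302 CPM in the controls. The groups did not overlap, but the rise was small, 1.17-fold (log2 fold change 0.22, SE 0.0454, 95% interval 0.12 to 0.32, edgeR adjusted p = 0.00118), and 65.8% of the genes tested changed by more. MET was not called where more than a 1.5-fold change was required (edgeR glmTreat, adjusted p of 1, with 2.3e-06 to 1 over the alternatives). MST1R (gene ID 4486; GRCh38 chromosome 3, 49887002 to 49903873, minus strand) had 4.86, 4.27 and 4.59 CPM in the knockdown libraries, against 16.6, 15.3 and 17.7 CPM in the controls. Its fitted level was 27.8% of the control (log2 fold change −1.85, SE 0.0906, edgeR adjusted p = 1.99e-08), from 116 to 186 reads per knockdown library and 317 to 452 per control.

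Of 30 ligands, activators, inhibitors and adaptors of MET and MST1R, 24 were tested, of which 13 rose, 4 fell and 7 did not pass, with a median of 0.18. HGF, the ligand of MET, had 34, 14 and 19 reads in the knockdown libraries, against 7, 2 and 7 in the controls (log2 fold change 1.62, SE 0.382, edgeR adjusted p = 0.00303). HGF passed the filter on low counts only through its knockdown libraries, so its adjusted p is a description only. MST1, the ligand of MST1R, had 31 reads in the knockdown libraries together and 36 in the controls (−0.63, SE 0.342, edgeR adjusted p = 0.125), and MST1 has near-identical pseudogene copies, so its value is uncertain. Of the proteases that cut these ligands into their active form, those named here rose: the log2 fold change was 3.18 for ST14, matriptase (SE 0.13, edgeR adjusted p = 5.17e-09), and 1.10 for PLAU, urokinase (SE 0.044, edgeR adjusted p = 4.81e-09). SPINT1, an inhibitor of ST14, had the largest rise of the list (5.51, SE 0.0566). Its relative SPINT2 stood at −0.01 (SE 0.0624, edgeR adjusted p = 0.937), with 903 CPM in the knockdown against 907 CPM in the controls. SHC1, an adaptor downstream of receptor kinases, fell to 412 CPM in the knockdown, against 714 CPM in the controls (−0.79, SE 0.0401, edgeR adjusted p = 2.53e-08).

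BMI1 (gene ID 648; GRCh38 chromosome 10, 22321099 to 22331706, plus strand) had 104, 106 and 105 CPM in the knockdown libraries, against 71.6, 74.8 and 62.4 CPM in the controls. All knockdown libraries were higher, by 1.51-fold (log2 fold change 0.59, SE 0.0622, 95% interval 0.46 to 0.73, edgeR adjusted p = 7.62e-06). With more than a 1.5-fold change required, BMI1 was not called (edgeR glmTreat, adjusted p of 0.702, with 1.47e-19 to 0.702 over the alternatives). BMI1 lies within the readthrough gene COMMD3-BMI1. In GENCODE 29, 28.2% of the 50-base stretches of the longest BMI1 coding transcript recur there, and reads from those cannot be told apart. Whether other reads were counted for both genes is not stated. The reads listed for COMMD3-BMI1 were 1.12 to 1.14 times those of BMI1 in the knockdown libraries and 1.22 to 1.23 times in the controls. COMMD3-BMI1 had a log2 fold change of 0.48 (SE 0.0635), whereas the upstream gene COMMD3 had 24.6 ± 0.498 CPM in the knockdown and 24.7 ± 2.43 CPM in the controls (SD, n = 3 each), with a 95% interval of −0.17 to 0.16 on the log2 scale.

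Subunits of Polycomb repressive complex 1 went both ways. Of 22 genes of the complex and its targets, 20 were tested, of which 9 rose, 8 fell and 3 did not pass, with a median of 0.07. CBX2, a chromobox subunit, rose by 1.20 (SE 0.0977), while PHC3, a polyhomeotic subunit (−0.90, SE 0.0576), SCMH1, a further subunit (−0.77, SE 0.0506), and PCGF5, a relative of BMI1 (−0.99, SE 0.0771), fell, with edgeR adjusted p of 9.71e-07 or less for each. PCGF2 (MEL18), the closest relative of BMI1, stood at 0.07 (SE 0.0622, edgeR adjusted p = 0.312). CDKN2A, a BMI1 target in other cells, had 2 reads in the knockdown libraries together and 1 in the controls.

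For 4 pairs of markers, the ratio within each library was computed as log2(reads + 0.5) of one gene minus that of the other. Such ratios do not depend on the scaling between libraries where reads are many. With few reads, as for LGR5, the added 0.5 makes them depend on depth. EPCAM over CD44 was −4.04, −4.00 and −4.07 in the knockdown libraries, against −7.43, −7.48 and −7.18 in the controls, a shift of 3.32. CD24 over CD44 was −10.4, −10.28 and −9.92 in the knockdown libraries, against −9.34, −9.37 and −9.57 in the controls, a shift of −0.77, so CD24 was lower also relative to CD44. MST1R over MET averaged −6.35 ± 0.0994 in the knockdown and −4.28 ± 0.18 in the controls (SD, n = 3 each), a shift of −2.07. LGR5 over LGR4 averaged −9.55 ± 0.322 in the knockdown and −11.13 ± 1.38 in the controls, a shift of 1.58 that rests on 0 to 3 control reads of LGR5. That shift was 0.80 without control replicate 2, 1.15 with 1 added to each count and 2.45 with 0.1 added. The groups did not overlap in any of the 4 ratios, and each gave p = 0.1 in an exact two-sided permutation test, also after adjustment over the 4, the smallest p that 3 against 3 can give. Where reads are many, each shift restates the difference between the log2 fold changes of its pair. The ratios are therefore no further support, and the share of all gene pairs without overlap was not computed.

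**Figure D3:**
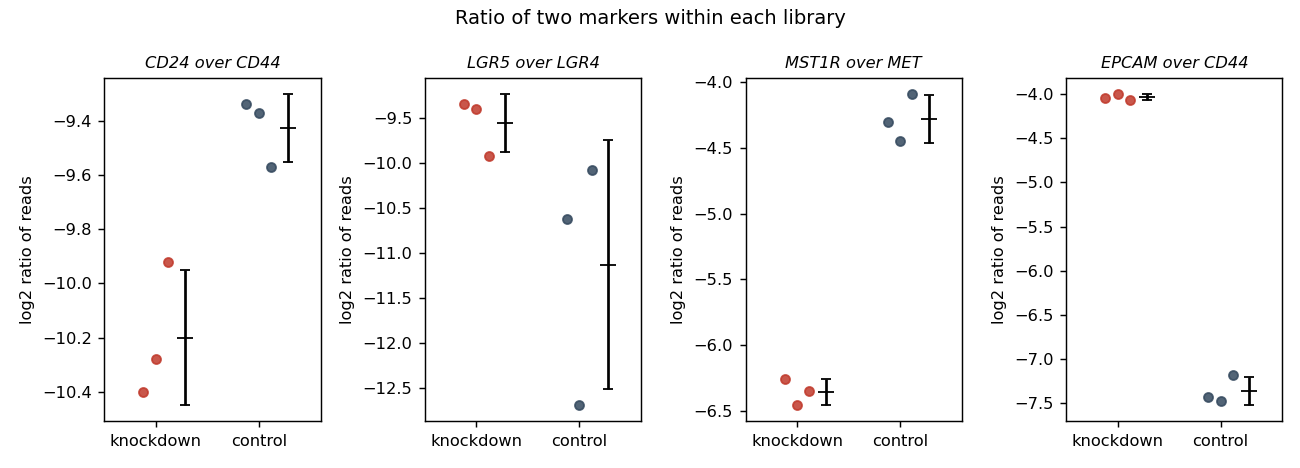
Log2 ratio of the reads of a pair of marker genes within each library (0.5 added to each count), with knockdown libraries in red, controls in dark blue and black bars for the mean and SD of 3 libraries. Each panel has its own axis, which does not start at 0. EPCAM over CD44 lies near −4.04 in knockdown and −7.36 in control libraries, and MST1R over MET near −6.35 in knockdown and −4.28 in control libraries.

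Genes that act with CD44 in hyaluronan binding were mixed. Of 19, 14 were tested, of which 5 rose, 8 fell and 1 did not pass, with a median of −0.15. CEMIP2, a cell surface hyaluronan-degrading protein, rose to 95.7 CPM in the knockdown, against 34.0 CPM in the controls (log2 fold change 1.49, SE 0.0671, edgeR adjusted p = 1.06e-08). HYAL2, a hyaluronidase, fell (−1.02, SE 0.0869, edgeR adjusted p = 1.4e-06), as did ezrin, EZR (−0.35, SE 0.0365, edgeR adjusted p = 6.78e-06), which links CD44 to actin, and merlin, NF2 (−0.35, SE 0.0423, edgeR adjusted p = 2.22e-05), which binds the CD44 tail. Of 19 partners of EPCAM and the prominins, 17 were tested, of which 7 rose, 5 fell and 5 did not pass, with a median of −0.01. PSENEN, a subunit of the gamma-secretase that cuts EPCAM within the membrane, fell (−0.51, SE 0.0536, edgeR adjusted p = 8.34e-06). ADAM17, which sheds the EPCAM ectodomain, fell (−0.36, SE 0.0479, edgeR adjusted p = 4.81e-05), and LEF1, a transcription factor that partners the released EPCAM tail, rose at a low level (1.41, SE 0.175, edgeR adjusted p = 2.86e-05; 2.75 CPM in the knockdown and 1.02 CPM in the controls).

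Of 27 other genes reported in pancreatic cancer stem cells, 21 were tested, of which 8 rose, 7 fell and 6 did not pass, with a median of 0. KLF4, a pluripotency factor, rose to 35.2 CPM in the knockdown, against 12.2 CPM in the controls (log2 fold change 1.53, SE 0.0633, edgeR adjusted p = 5.86e-09). ABCG2, a drug efflux pump, rose with a log2 fold change of 0.96 (SE 0.0458, edgeR adjusted p = 1.58e-08), and MSI1, an RNA-binding protein of progenitor cells, with one of 2.49 (SE 0.129, edgeR adjusted p = 3.05e-08). ANPEP, a surface aminopeptidase, fell to 356 CPM in the knockdown, against 828 CPM in the controls (−1.22, SE 0.0494, edgeR adjusted p = 5.16e-09). The share of members past the threshold in each of these lists (11 of 18 for the R-spondin list to 13 of 14 for the CD44 list) is to be read against the 67.3% of all genes.

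**Figure D4:**
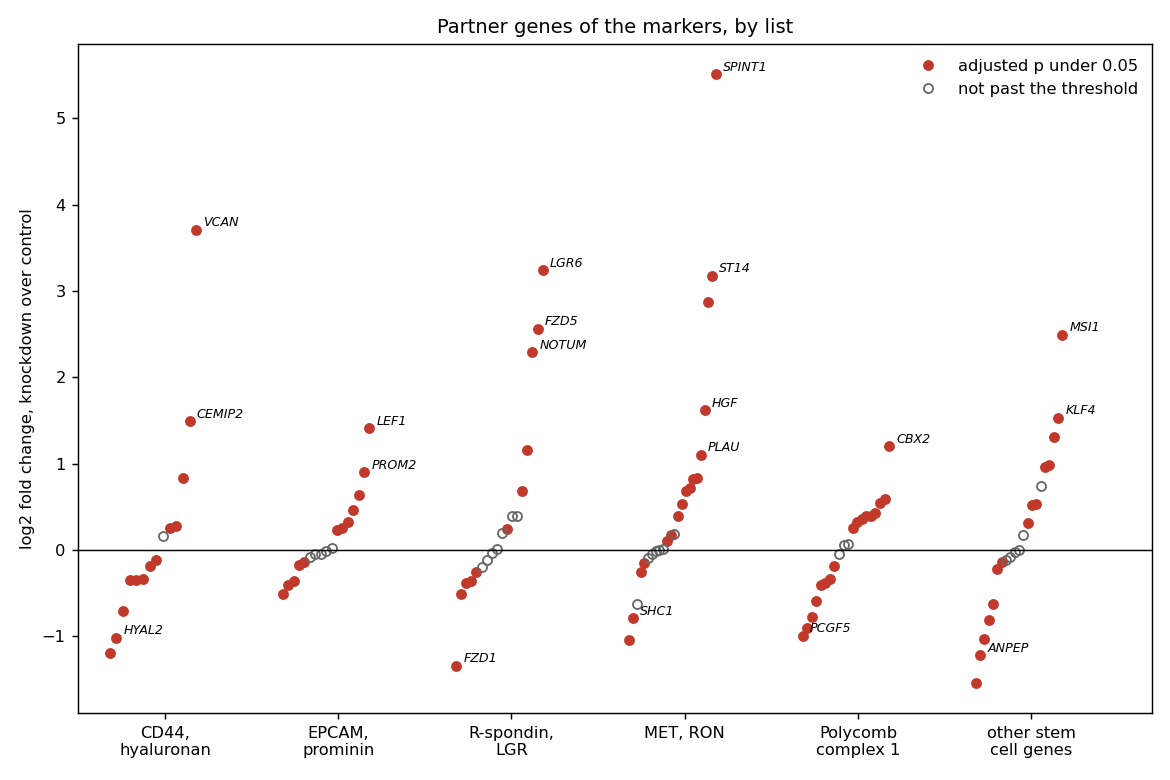
Log2 fold change, knockdown over control, of the tested genes in 6 lists of partners of the markers, sorted within each list. Filled red points passed an edgeR adjusted p of 0.05 and open grey points did not. Every list holds genes on both sides of 0, and SPINT1 (5.51), VCAN (3.71), LGR6 (3.24) and ST14 (3.18) lie highest. VCAN was named after its value was seen. VCAN and LGR6 passed the filter on low counts only through the knockdown libraries.

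Control replicate 3, which stood apart over all genes, also differed from the other controls in the markers. It lay below the mean of the other controls by 0.11 for CD44, 0.33 for CD24, 0.10 for LGR4, 0.13 for MET and 0.23 for BMI1 on the log2 scale, and above it by 0.16 for EPCAM and 0.15 for MST1R. No direction or call of these 7 genes changed without it. The profiles most like each marker over the 6 libraries, by root mean square difference of centred log2 CPM among about 12231 genes, were SCD (0.0115) and USP12 (0.0184) for CD44, EPB41L2 (0.0163) and STC1 (0.0184) for LGR4, and BMP1 (0.0429) and CX3CL1 (0.0431) for EPCAM. For MET they were TNPO3 (0.00836) and EIF4B (0.00909), for BMI1 CUL4B (0.0177) and AVL9 (0.0188), for MST1R PLAAT1 (0.0522) and ASB13 (0.0631), and for CD24 DYRK3 (0.0822) and IRAK3 (0.119). Because these genes were picked by profile over the same 6 libraries, their log2 fold changes had to lie near those of the markers. Examples were −0.96 for SCD and 2.40 for BMP1, with a looser match of −1.56 for IRAK3 beside CD24.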

How the data were processed

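The authors aligned the reads with GSNAP to GRCh38, per the submitters' processing notes (no version stated). Per the file headers, each deposited file holds the count of uniquely aligned reads per gene model and the authors' size-factor-adjusted RPKM. The sources used here give no annotation release, strand setting or size-factor method. The RPKM were used only for levels between genes, and the deposited counts for all tests. The labels' extraction protocol describes neurons, microglia and astrocytes, none of which is a sample here.

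Groups came from the siRNA label. Counts were filtered with filterByExpr (min.count 10, min.total.count 15), and TMM factors were computed. The two-sided quasi-likelihood test of edgeR 4.0.16 (glmQLFit, then glmQLFTest; R 4.3.3) used all 6 libraries, with Benjamini-Hochberg adjustment over all 15190 genes and a threshold of 0.05. Each fold change divides knockdown by control and carries its SE. Intervals use the total degrees of freedom of the quasi-likelihood fit, residual plus prior. RefSeq (GRCh38.p14) named 27814 of the IDs and GENCODE 29 another 20, while 2893 stayed unnamed, with 0.267% to 0.29% of reads. No 2 libraries held identical counts, and replicates differed by more than sampling noise. The test was checked on simulated counts, drawn with the same spread for every gene and with no library standing apart as control replicate 3 does. There, 54% of 1.25-fold, 88% of 1.5-fold and 98% of 2-fold changes were recovered, and 0.0408% of unchanged genes were called.

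The markers and partner lists were chosen with earlier results of these data known. Named genes are the 9 markers, KMT5C, the 4 partners of smallest p in each list, fixed ligands and relatives, and for each tested marker the 2 genes (mean log2 CPM of at least 1) of nearest profile. RNF43, ZNRF3, AXIN2, NKD2, COMMD3, COMMD3-BMI1, VCAN and the markers of other cell types were added after their values were seen. Alternatives were DESeq2 1.42.0 size factors and Wald test, upper-quartile and total-count scaling, other filters, limma-voom 3.58.1, glmTreat against a 1.5-fold change, thinning to the smallest library and leaving out each library. Some genes that this naming covers are not reported here.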

Additional observations from a re-analysis of the deposited data

How the results depend on the processing

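Directions of the 7 markers tested held in all 15 alternatives run for each, and the calls held in all of them except for MET and BMI1 against a 1.5-fold change. The log2 fold change ran from 2.32 to 2.40 for EPCAM, 0.94 to 1 for LGR4, 0.52 to 0.65 for BMI1, 0.18 to 0.26 for MET, −1.01 to −0.94 for CD44, −1.91 to −1.62 for CD24 and −1.90 to −1.80 for MST1R. Tested against a 1.5-fold change, 1606 of 15190 genes were higher and 1392 lower. Of the 7 markers tested, 2 (EPCAM and LGR4) were higher and 3 (CD44, CD24 and MST1R) lower. Calls were 4 of 14 tested in the CD44 and hyaluronan list, 1 of 17 (EPCAM and prominin) and 5 of 18 (R-spondin). They were 10 of 24 for MET and RON, 4 of 20 for Polycomb and 8 of 21 for other stem cell genes. These counts are to be read against those over all genes. Testing against a 1.5-fold change asks for a larger change than the main test. The 4 ratios kept their sign with 1 or 0.1 added in place of 0.5 and without any 1 library. LGR5 over LGR4 ranged from 0.80 to 2.11 when 1 library was left out. PROM1 was tested only with no filter (log2 fold change 0.13, SE 1.42, edgeR adjusted p = 0.945). Depth limits LGR5, PROM1 and the R-spondins, where a few reads decide the value. No paired analysis was possible because the labels give no replicate numbers.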

Other observations

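Hedgehog genes within the list of other stem cell genes, named after their values were seen, differed in direction. SHH, the secreted ligand, fell to 12.4 CPM in the knockdown, against 35.9 CPM in the controls (log2 fold change −1.54, SE 0.128, edgeR adjusted p = 1.14e-06). PTCH1, its receptor, rose to 17.7 CPM in the knockdown, against 8.99 CPM in the controls (0.98, SE 0.104, edgeR adjusted p = 8.08e-06), and GLI1, a transcription factor of the pathway, stood at −0.12 (SE 0.132, edgeR adjusted p = 0.438). Other surface proteins of that list, also picked with values in view, went both ways. ALCAM, an adhesion molecule, was lower, with a log2 fold change of −1.03 (SE 0.0564, edgeR adjusted p = 4.65e-08). So was L1CAM, another, with one of −0.81 (SE 0.0521, edgeR adjusted p = 1.54e-07). ITGA6 (0.53, SE 0.0457, edgeR adjusted p = 1.66e-06), NOTCH1 (0.52, SE 0.0962, edgeR adjusted p = 0.00058) and NOTCH2 (0.31, SE 0.0437, edgeR adjusted p = 8.12e-05) were higher. CD9, a tetraspanin, stood at −0.08 (SE 0.0447, edgeR adjusted p = 0.149). ALDH1A1, CXCR4, SOX2 and NANOG, often used with the 9 markers, had 5 or fewer reads in every library.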
